A study of Mus musculus with 2 samples.

Results

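Carbonic anhydrases are enzymes that interconvert carbon dioxide and bicarbonate, most of them with a zinc ion held by histidines in the active site. Members differ in where they work: Car1, Car2, Car3 and Car13 are cytosolic, Car5b is mitochondrial, and Car4, Car9, Car12 and Car14 sit on the cell membrane with the active site outside the cell. Car8 is a related protein that has lost the enzyme activity. In red cells the cytosolic enzymes speed the loading and release of carbon dioxide, together with the band 3 anion exchanger, which carries bicarbonate across the membrane, and the spleen of a newborn mouse is a site of red cell production.

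The members described here are 10 genes of this family, chosen by symbol (Car1, Car2, Car3, Car4, Car5b, Car8, Car9, Car12, Car13 and Car14), out of 43346 Ensembl genes in the deposited gene tables. All 10 symbols were found. The other 6 family genes with a symbol of this form (Car5a, Car6, Car7, Car10, Car11 and Car15) are given beside them. Total RNA of more than 200 nt was sequenced from whole spleens of B6NCrl mice at 0 days after birth, from 10 ng of input. There is 1 group, P0 spleen, with 2 libraries from 2 pups of 1 pregnancy, with no treatment, no genetic change and no sex recorded in the labels. Pup 2 gave replicate 1, and pup 1 gave replicate 2. With 1 group and 1 library a pup there is no contrast to test, so the values below are levels and differences between littermates without p-values.

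The libraries held 33122187 estimated counts in replicate 1 and 32162543 in replicate 2. Levels are TPM (an abundance scaled for transcript length and library total, so that all features of a library sum to the same value) with the mean ± SD of 2 libraries. The spleen label was checked against marker genes. The spleen mesenchyme regulators Tlx1 and Nkx2-5 stood at 15.51 and 15.02 TPM in replicate 1 and at 24.05 and 20.54 TPM in replicate 2. All 12 erythroid and all 10 neutrophil markers reached 1 TPM in both libraries. Exocrine pancreas markers summed to 1105 TPM in replicate 1 and 410 TPM in replicate 2, and all 9 that could be compared were higher in replicate 1. A bulk level cannot tell fewer cells of a type from less RNA per cell.

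Car2 and Car1 made up nearly all carbonic anhydrase RNA of the newborn spleen. Together the 10 members reached 1982 TPM in replicate 1 and 1658 TPM in replicate 2, or 0.198% and 0.166% of all TPM. Car2 alone held 95.4% of that sum in replicate 1 and 94.9% in replicate 2. Car1 held 4.26% in replicate 1 and 4.65% in replicate 2. The remaining 8 members together came to 7.57 TPM in replicate 1 and 7.61 TPM in replicate 2.

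A member was called detected at 1 TPM or more in both libraries. By that rule 4 of the 10 members were detected (Car2, Car1, Car9 and Car13), against 55.6% of the 21474 protein-coding genes. None of the other 6 family genes was detected, and these summed to 2.26 TPM in replicate 1 and 2.40 TPM in replicate 2. Grouped by site, the 4 cytosolic members summed to 1816 ± 229 TPM, the 4 membrane members to 3.55 ± 0.127 TPM, and the mitochondrial Car5b stood at 0.285 ± 0.106 TPM (SD, n = 2 each).

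**Figure D1:**
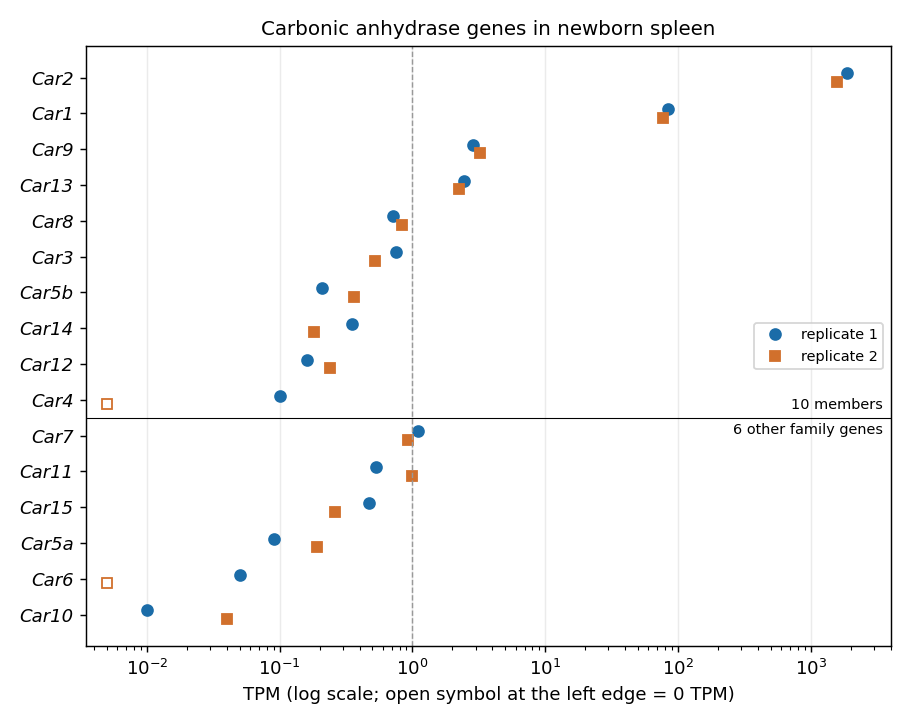
TPM on a log scale for each carbonic anhydrase gene, with circles for replicate 1, squares for replicate 2 and an open symbol at the left edge for 0 TPM; the dashed line marks 1 TPM. Car2 lies above 1000 TPM and Car1 near 80 TPM in both libraries, and no other gene of the family exceeds 4 TPM.

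Car2, the high-activity cytosolic enzyme whose loss in humans causes osteopetrosis with renal tubular acidosis, was the most abundant member. It lies on chromosome 3 (14886273 to 14900770, plus strand, mm10). Its level was 1889.82 TPM in replicate 1 and 1573.69 TPM in replicate 2, a mean of 1732 ± 224 TPM. These levels rest on 98492 and 77463 counts, so counting error is small beside the difference between the pups. Car2 ranked 31 among the 21474 protein-coding genes by mean TPM.

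Car1, the second cytosolic enzyme of red cells and a slower one than Car2, lies on the same chromosome (14766216 to 14808368, minus strand). It stood at 84.45 TPM in replicate 1 and 77.18 TPM in replicate 2, a mean of 80.8 ± 5.14 TPM. It ranked 1347 among protein-coding genes, with 6.27% of them at a higher mean level. The TPM of Car2 was 22.4 times that of Car1 in replicate 1 and 20.4 times in replicate 2, so the order of these enzymes was the same in both pups and the ratio nearly so.

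Car13, a cytosolic enzyme found in many tissues, was low but detected. Its level was 2.44 TPM in replicate 1 and 2.26 TPM in replicate 2 (2.35 ± 0.127), from 169 and 148 counts. It lies at 14641727 to 14663002 on the plus strand of chromosome 3.

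Car3, a cytosolic form with weak carbon dioxide hydration activity that is abundant in skeletal muscle and fat, stood at 0.75 TPM in replicate 1 and 0.52 TPM in replicate 2. Only 28 and 16 counts lie behind these levels, with exact 95% Poisson intervals of 18.6 to 40.5 and 9.15 to 26.0 counts. The 8 skeletal muscle markers summed to 34.0 TPM in replicate 1 and 37.0 TPM in replicate 2. None was without counts, but only 4 of the 8 were detected. Most of that sum was Mylpf, at 25.74 TPM in replicate 1 and 25.91 TPM in replicate 2. The 8 fat markers summed to 59.9 TPM in replicate 1 and 52.6 TPM in replicate 2, most of it Fabp4, which other cells express too, at 51.04 TPM in replicate 1 and 37.91 TPM in replicate 2. The fat-defining genes Cidec and Lep had 0 counts in both libraries. The part of muscle or fat RNA in the Car3 level was not tested.

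These 4 cytosolic genes form a cluster of 259 kb on chromosome 3, in the order Car13, Car1, Car3, Car2. Car3 (14863512 to 14872523, plus strand) lies 13749 bp from Car2 and 55143 bp from Car1, its neighbours on either side. The TPM of Car2 was 2520 times that of Car3 in replicate 1 and 3026 times in replicate 2. The TPM of Car1 was 113 times that of Car3 in replicate 1 and 148 times in replicate 2. The lowest gene of the cluster therefore lay between its highest ones. The pseudogene Gm5843, between Car13 and Car1, stood at 0.18 TPM in each library. Outside the cluster, the long noncoding RNA A930001A20Rik, the next annotated gene beyond Car2, stood at 0 TPM in replicate 1 and 0.05 TPM in replicate 2. The pseudogene Gm16399, which lies within Car1 and shares no exonic base with it, was listed at 2.33 TPM in replicate 1 and 1.02 TPM in replicate 2, from 8.82 and 3.66 counts.

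**Figure D2:**
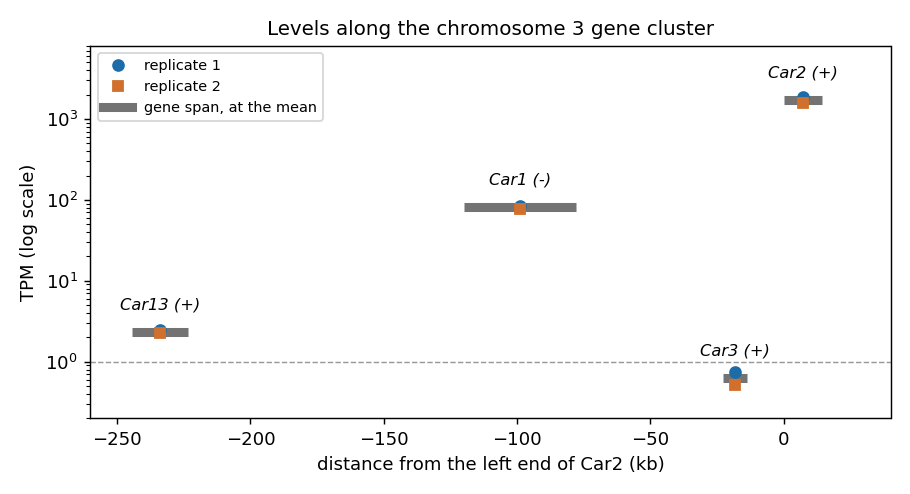
TPM on a log scale for the 4 clustered genes against distance from the left end of Car2 in kb, with circles for replicate 1, squares for replicate 2, a grey bar for the extent of each gene and its strand in brackets. Car3, below the dashed line at 1 TPM, lies between Car1 and Car2, which stand more than 100 times higher.

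The authors' quantification divided almost no reads between these related genes. The deposited posterior SD of the count, which measures how uncertain the division of shared reads is, was 0 for Car2, Car3 and Car13 in both libraries. For Car1 it was 0.36 counts in replicate 1 and 0.35 counts in replicate 2.

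Car9 was the most abundant membrane member. It encodes a transmembrane enzyme that acidifies the outside of the cell, is a known target of the hypoxia-inducible factor HIF-1, and is known from the stomach lining. It lies on chromosome 4 (43506966 to 43513729, plus strand). Its level was 2.85 TPM in replicate 1 and 3.22 TPM in replicate 2 (3.04 ± 0.262), from 134.99 and 167.10 counts. Stomach and gut markers summed to 12.98 TPM in replicate 1 and 10.9 TPM in replicate 2. The largest part was Muc6, at 5.46 TPM in replicate 1 and 6.09 TPM in replicate 2, and 3 of the 10 markers were detected. All 10 genes of a list known to respond to hypoxia were detected, against 55.6% of protein-coding genes. They summed to 774 TPM in replicate 1 and 779 TPM in replicate 2. Most of that sum was Ldha, at 585.95 TPM in replicate 1 and 575.42 TPM in replicate 2. By scaled counts 6 of the 10 were higher in replicate 1 and 4 in replicate 2, with log2 ratios from −0.33 to 0.35. The part of hypoxia in the Car9 level was not tested. An antisense gene, Gm12454 (1.92 TPM in replicate 1, 2.11 TPM in replicate 2), overlaps 214 exonic bases of Car9, or 9.29% of its exonic length. The sources used here do not say whether strand was used in counting. The deposited posterior SD of the Car9 count was 0.81 in replicate 1 and 0.87 in replicate 2, so the authors' model divided few reads with doubt. Whether its division of that stretch matches the strand of origin was not tested.

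The promoters of the membrane enzymes are of interest because the human CA9 promoter is known for a hypoxia response element next to its start site. RefSeq promoter sequences (GRCm38.p6, the 250 bases before the start site) were at hand for 5 members: Car4, Car5b, Car9, Car12 and Car14. They were searched on both strands for CACGTA, the reverse complement of which is TACGTG, a form of the core element. Car9 and Car14 held it, 2 of the 5, and 895 of all 32851 promoters did, or 2.72%. The letters were picked with the CA9 element known, so the Car9 match is no independent result. Only members with a sequence at hand were searched, and enrichment in the family was not tested. In Car9 (chr4:43506776-43507025, plus strand) the match begins 18 bases before the RefSeq start, and in Car14 (chr3:95904686-95904935, minus strand) 7 bases before it. By the gene positions given here, from GENCODE M21, the Car9 match lies inside the gene, as does most of the Car14 match. Both promoters are shown 5′ to 3′ on the gene's strand, with the match in capitals.
Car9 promoter: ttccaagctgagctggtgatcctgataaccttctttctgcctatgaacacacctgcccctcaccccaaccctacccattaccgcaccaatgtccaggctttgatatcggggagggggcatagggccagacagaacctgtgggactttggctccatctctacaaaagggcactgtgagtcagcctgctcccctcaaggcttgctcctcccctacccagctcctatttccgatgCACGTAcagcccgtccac
Car14 promoter: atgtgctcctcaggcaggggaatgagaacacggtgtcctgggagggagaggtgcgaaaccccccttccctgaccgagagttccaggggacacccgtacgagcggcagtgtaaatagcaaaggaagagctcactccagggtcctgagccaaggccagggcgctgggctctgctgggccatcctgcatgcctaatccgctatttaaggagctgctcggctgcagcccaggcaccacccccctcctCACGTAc
A match of letters is a description of the sequence and not a measured binding site. The genes that hold it differed in level: Car9 averaged 3.04 ± 0.262 TPM and Car14 0.265 ± 0.120 TPM (SD, n = 2 each). In Car4, Car5b and Car12 these letters are not in the window.

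Car14, another transmembrane enzyme (chromosome 3, 95897768 to 95904691, minus strand, outside the cluster), stood at 0.35 TPM in replicate 1 and 0.18 TPM in replicate 2, from 10.77 and 5.24 counts. Its exons share 445 bases, 17.5% of its exonic length, with Aph1a, a gamma-secretase subunit gene on the other strand that stood at 11.54 TPM in replicate 1 and 12.91 TPM in replicate 2. Reads of that stretch may belong to either gene. The deposited posterior SD of the Car14 count was 0.92 in replicate 1 and 0.5 in replicate 2.

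Car12, a transmembrane enzyme of many secretory epithelia (chromosome 9, 66713686 to 66766845, plus strand), stood at 0.16 TPM in replicate 1 and 0.24 TPM in replicate 2. It had 6 counts in replicate 1 and 23 in replicate 2. The authors' model gave the gene a mean transcript length of 1304 nt in replicate 1 and 3332 nt in replicate 2, and TPM is divided by length, so counts and TPM differ in their ratio.

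Car4, which is tethered to the membrane by a lipid anchor and is known from lung capillaries and kidney (chromosome 11, 84957786 to 84966044, plus strand), was at the limit of what these libraries can show. It had 3 counts (0.10 TPM) in replicate 1 and 0 counts in replicate 2, where a count of 0 allows up to 3 counts, or 0.0933 CPM (counts scaled to library size). Endothelial markers, by contrast, summed to 264 TPM in replicate 1 and 327 TPM in replicate 2, and none was at 0.

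Car5b, a mitochondrial enzyme, lies on the X chromosome (163976822 to 164027997, minus strand). It stood at 0.21 TPM in replicate 1 and 0.36 TPM in replicate 2, from 22 and 36 counts. Car5a, the other mitochondrial form and known from liver, stood at 0.09 TPM in replicate 1 and 0.19 TPM in replicate 2.

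Car8, the inactive relative that binds the inositol trisphosphate receptor and is best known from cerebellar Purkinje cells, lies on chromosome 4 (8143362 to 8239041, minus strand). Its level was 0.71 TPM in replicate 1 and 0.83 TPM in replicate 2, from 84 and 93 counts. A pseudogene and a miRNA gene that overlap it, Gm11799 and Gm25355, had 0 counts in both libraries. Of the other inactive relatives, Car11 stood at 0.53 TPM in replicate 1 and 0.99 TPM in replicate 2, and Car10 at 0.01 TPM in replicate 1 and 0.04 TPM in replicate 2.

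The other family genes included Car7, a cytosolic enzyme known from brain, at 1.11 TPM in replicate 1 and 0.92 TPM in replicate 2, just short of detection. Car15, a membrane form, stood at 0.47 TPM in replicate 1 and 0.26 TPM in replicate 2. Car6, the secreted enzyme of saliva, stood at 0.05 TPM in replicate 1 and had 0 counts in replicate 2.

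By mean TPM the order of the members was Car2, Car1, Car9, Car13, Car8, Car3, Car5b, Car14, Car12 and Car4. From Car2 down to Car13, both values of each member lay above both of the next, as Car3 did over Car5b and Car12 over Car4. The ranges of Car8 and Car3 overlapped, and so did those of Car5b, Car14 and Car12, so the order within each of these sets is not set by these data. By the deposited posterior mean TPM, which adds a little to every transcript, Car4 stood at 0.455 TPM, Car14 at 0.445 TPM and Car12 at 0.360 TPM, above Car5b at 0.305 TPM.

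Transcript shares come from the authors' transcript tables, and Car2 and Car1 each had 1 leading protein-coding form. Car2-201 held 96.2% ± 0.148 of the TPM of Car2 (SD, n = 2), and Car2-203, a transcript with a retained intron, 3.64% ± 0.1498. The authors' model assigned that retained-intron form 1747 counts in replicate 1 and 1295 in replicate 2. These were 1.77% of the counts of Car2 in replicate 1 and 1.67% in replicate 2. Car1-203 held 89.5% ± 0.870 of the TPM of Car1, and the short Car1-202 of 367 nt another 8.45% ± 0.888. By counts, which are not scaled for length, Car1-203 held 95.6% and Car1-202 only 2.21% (means of 2 libraries). Car8 and Car13 have 1 transcript each in these tables.

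The low members were less clear. Car9-201 held 74.3% of the TPM of Car9 in replicate 1 and 79.5% in replicate 2. A noncoding transcript of the gene, Car9-202, held 0% in replicate 1 and 12.1% in replicate 2, while another, Car9-207, held 25.7% in replicate 1 and 8.39% in replicate 2. The share of Car9-207 rests on 6.92 counts in replicate 1 and 2.41 in replicate 2. By counts Car9-201 held 94.9% in replicate 1 and 87.6% in replicate 2. Car5b-201 held 85.7% of the TPM of Car5b in replicate 1 and 94.4% in replicate 2. For Car3 the leading form depends on the measure. The coding Car3-201 held 51.3% of TPM in replicate 1 and 38.5% in replicate 2, against 44.7% and 61.5% for the retained-intron Car3-203. By counts Car3-201 led in both libraries, with 69.3% in replicate 1 and 58.0% in replicate 2, but these are shares of 28 and 16 counts. In Car14 the retained-intron Car14-202 held 51.4% of TPM in replicate 1 and 52.6% in replicate 2, while Car14-201, a coding form, held 81.4% and 80.9% of counts in those libraries. In Car12 the retained-intron Car12-203 held 81.2% of TPM in replicate 1 and 12.5% in replicate 2, and the coding Car12-202 18.8% and 87.5%.

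Of the members with enough counts to compare, 5 were within 1.5-fold between the pups and 2 were not. For this comparison counts were scaled by TMM (a scaling that sets the bulk of genes level between libraries), and ratios are replicate 1 over replicate 2, for genes whose mean count reached 20. By this filter 7 members entered: 4 were higher in replicate 1 (Car1, Car2, Car3, Car13) and 3 in replicate 2 (Car5b, Car8, Car9). Their median log2 ratio was 0.25, against −0.01 over all 15506 genes that entered. That median depends on the settings: it was 0.08 with a minimum mean count of 10, 0.11 on the deposited TPM and 0.15 by library size alone. Each of the 7 kept its direction under all 4 other scalings tried, including the deposited TPM. Each interval of a ratio is an exact 95% Clopper-Pearson interval and covers counting error alone. The ratios hold a prior count of 2, added to each count, which draws those of low counts toward equal levels. An interval is taken from the rounded counts without that addition. It leaves out the spread between animals. For the spread between the 2 libraries beyond counting error, edgeR's common dispersion gave a coefficient of variation of 0.128. With 1 library a pup, that value cannot separate animals from the handling of each sample.

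Car2 was 1.32-fold higher in replicate 1 than in replicate 2 (log2 ratio 0.40, interval 1.31 to 1.34). The interval leaves out equal levels, and 15.7% of all genes differed by more. Car1 was 1.19-fold higher in replicate 1 (log2 ratio 0.26, interval 1.13 to 1.26), and 34.4% of all genes differed by more. Both lay within the 5th to 95th percentile of all genes, which ran from −0.56 to 0.42 on the log2 scale.

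The erythroid markers moved the same way as Car1 and Car2. All 12 were higher in replicate 1, with log2 ratios from 0.15 to 0.50 and a median of 0.34, and they summed to 3123 TPM in replicate 1 and 2753 TPM in replicate 2. None was at 0. This side was not particular to erythroid genes. All 9 exocrine pancreas markers compared were higher in replicate 1 (median log2 ratio 1.75). Of 7 liver markers compared, 6 were higher in replicate 1 and 1 in replicate 2 (median 1.08). All 9 macrophage, all 7 B lineage and all 10 stroma markers were higher in replicate 2. Neutrophil markers went the other way, with 9 of 10 higher in replicate 2, a median log2 ratio of −0.36 and sums of 14655 TPM in replicate 1 and 20831 TPM in replicate 2. Mast cell and basophil markers summed to 836 TPM in replicate 1 and 1877 TPM in replicate 2. Set against a single erythroid gene, the TPM of Car2 was 2.64 times that of Alas2, which encodes the erythroid enzyme that starts haem synthesis, in replicate 1 and 2.22 times in replicate 2. The part of the erythroid share in the difference of Car1 and Car2 was not tested.

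Of the 7 members above the filter, 2 (Car3 and Car5b) were at least 1.5-fold apart, against 7.11% of all genes in either direction. Car3 was 1.73-fold higher in replicate 1 (log2 ratio 0.79), with an interval of 0.951 to 3.60 that includes no difference. Car5b was 1.53-fold higher in replicate 2 (log2 ratio −0.61), with an interval of 0.901 to 2.81 that includes it as well. Over all genes 4.57% were at least 1.5-fold higher in replicate 2. Both members have mean counts under 30. On the deposited TPM with 0.1 TPM added neither reached 1.5-fold (log2 ratios 0.46 for Car3 and −0.57 for Car5b), and with nothing added Car5b did (−0.78) and Car3 did not (0.53). Differences of this size were not detectable for them at this depth. Below the filter, at a mean count of 14.5, Car12 was 3.02-fold higher in replicate 2 by scaled counts with the prior count added. Its interval, 1.46 to 11.1, leaves out equal levels and rests on 6 counts in replicate 1 and 23 in replicate 2. Car14 was 1.92-fold higher in replicate 1 (interval 0.733 to 8.40).

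Car9 was 1.19-fold higher in replicate 2 (interval 0.942 to 1.503), Car13 was 1.19-fold higher in replicate 1 (interval 0.947 to 1.49), and Car8 was 1.06-fold higher in replicate 2 (interval 0.784 to 1.45). The intervals of all 3 include no difference.

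**Figure D3:**
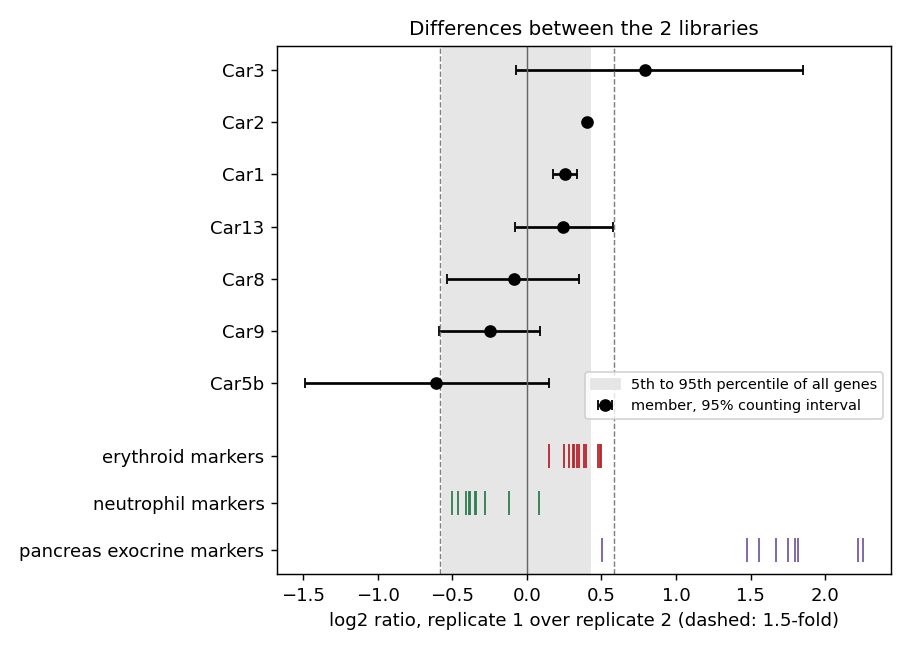
Log2 ratio of scaled counts, replicate 1 over replicate 2, for the 7 members whose mean count reached 20 (points, with 95% counting intervals) and for each erythroid, neutrophil and exocrine pancreas marker (ticks); the grey band spans the 5th to 95th percentile of all genes and the dashed lines mark 1.5-fold. Car1 and Car2 lie among the erythroid markers, on the side of replicate 1, and the intervals of the other 5 members cross 0.

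Carbon dioxide handling needs transport as well as enzyme, and 26 genes for bicarbonate, carbon dioxide, ammonia, lactate and proton transport or sensing were read beside the family. Of these 26, 13 were detected, against 55.6% of protein-coding genes. The 5 most abundant were Slc4a1, Rhd, Aqp1, Rhag and Slc16a1, of which Rhag is also among the erythroid markers. Slc4a1, the band 3 anion exchanger, stood at 507.01 TPM in replicate 1 and 442.61 TPM in replicate 2 (475 ± 45.5). Rhd, a subunit of the red cell Rh complex, stood at 467.49 TPM in replicate 1 and 381.46 TPM in replicate 2. Aqp1, a water channel that also passes carbon dioxide, stood at 264.96 TPM in replicate 1 and 241.93 TPM in replicate 2.

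Rhag, the Rh-associated glycoprotein, stood at 171.93 TPM in replicate 1 and 134.84 TPM in replicate 2. Slc16a1, a lactate and proton carrier, stood at 78.18 TPM in replicate 1 and 72.48 TPM in replicate 2, close to Car1. All 5 were higher in replicate 1, as Car1 and Car2 were. The TPM of Car2 exceeded that of Slc4a1 3.73 times in replicate 1 and 3.56 times in replicate 2, and that of Aqp1 7.13 times in replicate 1 and 6.50 times in replicate 2.

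Among the 15 transport genes with enough counts to compare, 6 were higher in replicate 1 and 9 in replicate 2, with a median log2 ratio of −0.10. At a mean count of at least 100, Slc26a6, an anion exchanger of epithelia, was the only one at least 1.5-fold apart. It stood at 1.68 TPM in replicate 1 and 3.86 TPM in replicate 2, from 87 and 137 counts, and was 1.502-fold higher in replicate 2 (interval 1.15 to 2.00). Slc26a4, the anion exchanger pendrin of inner ear, thyroid and kidney, had 0 counts in both libraries.

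**Figure D4:**
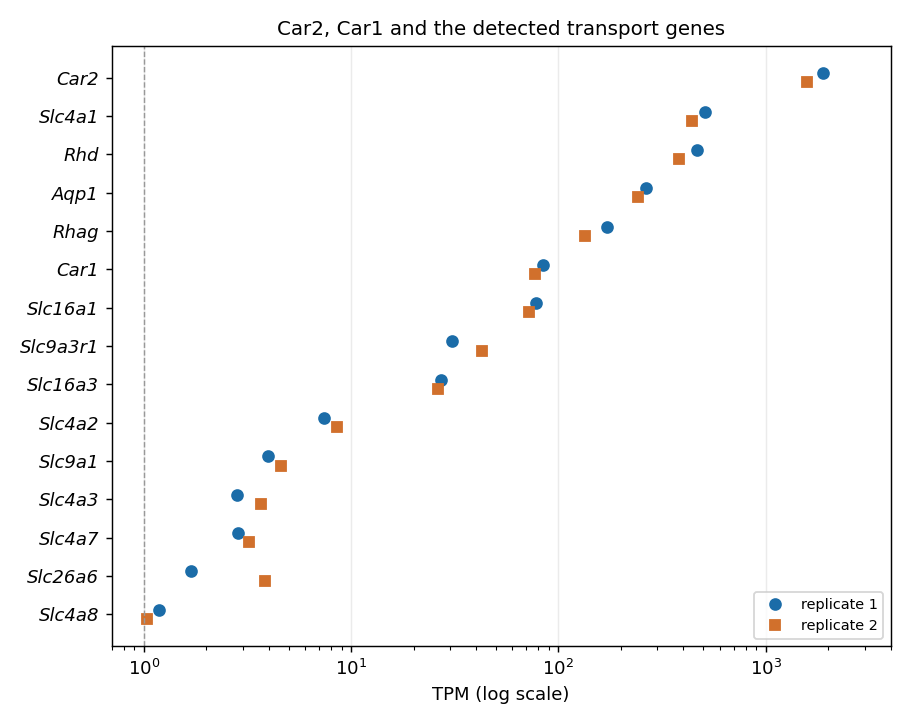
TPM on a log scale for Car2, Car1 and the 13 detected transport genes, with circles for replicate 1 and squares for replicate 2; the dashed line marks 1 TPM. Car2 stands above every transport gene shown in both libraries, and Car1 stands between Rhag and Slc16a1.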

How the data were processed

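Total RNA of 2 P0 spleens was measured, with 1 library a pup. The samples share 1 donor identifier but are described as coming from different pups, so each was taken as its own animal. Per the labels, RNA was extracted with mirVana, spike-ins were added and the build is mm10. Gene models are GENCODE M4, per the deposited text listings, and columns are laid out as RSEM writes them. The aligner and tool versions were not given in the sources used here. Values deposited by the authors are expected counts, estimated counts in which reads matching several features are divided among them, and TPM relative to all features, with posterior means and SDs.

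Gene names, types and positions were taken from GENCODE M21 (mm10), matched by Ensembl identifier. Of 43346 genes, 884 had no match. For ratios, expected counts were rounded, then scaled by TMM (edgeR 4.0.16, R 4.3.3), with log2 CPM at a prior count of 2 and a minimum mean count of 20. The steps were tested on simulated counts. Levels, shares and exact intervals were computed in Python 3.11.15 with pandas 2.3.3 and scipy 1.17.1. These intervals, and the floor of 3 counts for a 0, reflect counting error alone, because reads counted without molecular identifiers need not be separate molecules.

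The members and the marker and transport lists were chosen with earlier results of these data known. Genes named are the 10 members, the 6 other family genes, the 5 transport genes with the highest mean TPM, any transport gene at least 1.5-fold apart at a mean count of at least 100, annotated neighbours of a member, and for marker lists the sums, ranges and genes at 0. Tlx1, Nkx2-5, Mylpf, Fabp4, Muc6, Ldha, Alas2 and Slc26a4 are given beyond that rule. A planned comparison of protein sequences was not run. Alternatives were posterior mean TPM, TPM rescaled to protein-coding genes, shares of counts, other detection thresholds, other scalings (DESeq2 1.42.0 size factors, library size, spike-in totals, deposited TPM with 0.1 TPM added and, chosen after seeing the data, with nothing added), other filters, another prior count and each library alone.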

Additional observations from a re-analysis of the deposited data

How the results depend on the processing

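Car2 stayed the highest member and Car1 the next under every alternative run on levels, and each of the 7 compared members kept its direction under every alternative run on ratios; ranks among all genes were not recomputed. The summed TPM of the members, 1820, became 2076 with TPM rescaled to protein-coding genes. The share of Car2, 95.1%, became 96.7% as a share of expected counts, which are not scaled for length. At 5 TPM, 2 members and 8 transport genes were detected in place of 4 and 13, and at 0.5 TPM 6 members and 13 transport genes. The 2 members at least 1.5-fold apart became 1 with spike-in totals, 0 on the deposited TPM with 0.1 TPM added, 1 on the deposited TPM with nothing added (an alternative chosen after seeing the data), 0 at 2-fold, 3 with a minimum mean count of 10 and 5 with no filter on counts. The last 2 settings add members with mean counts under 20. The members' median log2 ratio, 0.25, ranged from 0.08 to 0.30. With 1 library left out, the summed TPM ranged from 1658 to 1982, the share of Car2 from 94.9% to 95.4%, and the counts detected stayed at 4 members and 13 transport genes. The deposited TPM, with 0.1 TPM added, moved the median log2 ratio of all genes by −0.13 and library size alone by −0.10. Of the results named for single genes, 22 values under an alternative moved by more than the spread or interval, 81 did not, and no ratio changed direction. No paired analysis was possible because there is 1 group and no contrast. Depth limits Car3, Car4, Car5b, Car12 and Car14, each with a mean count under 30.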
